A study of Mus musculus with 4 samples.

Results

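The 10 genes described here are the transforming growth factor beta (TGF-beta) ligand Tgfb1, its receptors Tgfbr1 and Tgfbr2, the Smad genes Smad2, Smad3, Smad4 and Smad7, and the Id genes Id1, Id2 and Id3. They were chosen by gene symbol as regulators of blood stem cell dormancy, and are 10 of the 18194 genes that could be named on the array. All 10 were found, on 23 probe sets, the groups of short probes that are each read as 1 signal. The samples were sorted from the bone marrow of C57BL/6 mice by the Lin-Sca-1+c-Kit+ (LSK) gate, which includes blood stem cells and early progenitors. The mice of one group had been reconstituted with necdin null fetal liver cells and those of the other with wild type fetal liver cells. Necdin, encoded by Ndn, is a growth-restraining protein. Both groups had received 6.5 Gy of irradiation, a sublethal dose, so no unirradiated cells stand in the comparison. Each group had 2 arrays. The sources used here do not give ages, the time from irradiation to collection, the conditioning of the recipients, or whether recipient cells were removed before the LSK sort. The labels do not tie the arrays of a group to separate animals. The p-values therefore reflect array-to-array spread alone, part of which may be technical.

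TGF-beta binds the type II receptor, which activates the type I receptor, which in turn phosphorylates the receptor Smads. These join the common Smad and act on target genes in the nucleus, while the inhibitory Smad blocks the receptor. Id proteins are dimerization partners without a DNA-binding region that hold E-protein transcription factors away from DNA. Their genes are classical targets of bone morphogenetic protein (BMP) signals, and TGF-beta can raise or repress them depending on the cell. In blood stem cells TGF-beta is known as a signal of dormancy, and Id genes are known to affect self-renewal and lineage choice.

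The promoters of 4 members are shown because they stand at the start and the end of this pathway: the receptors Tgfbr1 and Tgfbr2, whose signals were among the highest of the 10 and moved together over the arrays, and the target genes Id2 and Id3. Each run is the 250 bases before the transcription start in RefSeq's GRCm38.p6 table, read 5′ to 3′ on the strand of the gene. For Tgfbr1, which has 2 starts in that table, it is the first one listed. Capitals mark the motifs GGCGCC, a GC-rich Smad-binding element of BMP-responsive genes, and CAGAC, a single Smad box with its flank, on either strand.
Tgfbr1, chr4:47352972-47353221, plus strand: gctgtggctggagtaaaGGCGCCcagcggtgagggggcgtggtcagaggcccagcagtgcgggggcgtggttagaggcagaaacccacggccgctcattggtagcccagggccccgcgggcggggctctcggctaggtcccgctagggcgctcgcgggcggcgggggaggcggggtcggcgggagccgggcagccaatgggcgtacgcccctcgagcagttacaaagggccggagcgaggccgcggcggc
Tgfbr2, chr9:116175364-116175613, minus strand: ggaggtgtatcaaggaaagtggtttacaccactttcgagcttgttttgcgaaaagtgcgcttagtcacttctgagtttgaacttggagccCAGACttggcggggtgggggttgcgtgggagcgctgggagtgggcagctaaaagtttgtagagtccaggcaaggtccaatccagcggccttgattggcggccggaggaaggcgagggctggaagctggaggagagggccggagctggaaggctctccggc
Id2, chr12:25096093-25096342, minus strand: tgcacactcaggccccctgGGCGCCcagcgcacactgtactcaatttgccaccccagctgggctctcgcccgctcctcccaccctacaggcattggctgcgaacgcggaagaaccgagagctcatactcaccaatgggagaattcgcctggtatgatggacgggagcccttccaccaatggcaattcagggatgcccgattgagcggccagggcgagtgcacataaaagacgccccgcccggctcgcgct
Id3, chr4:136143572-136143821, plus strand: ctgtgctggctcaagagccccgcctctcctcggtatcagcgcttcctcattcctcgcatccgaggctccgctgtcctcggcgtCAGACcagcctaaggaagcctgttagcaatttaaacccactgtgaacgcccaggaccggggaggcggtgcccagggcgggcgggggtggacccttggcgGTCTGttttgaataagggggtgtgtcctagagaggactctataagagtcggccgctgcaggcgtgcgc

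The Id2 and Tgfbr1 windows each held 1 GGCGCC, and 9.59% of the 32851 promoter windows in the table held at least 1 on either strand. The Id3 window held 2 copies of CAGAC and that of Tgfbr2 held 1, a motif in 42.2% of all windows. Windows of 6 members were searched. Member windows on 1 chromosome were left out, while the background of all windows kept that chromosome. The palindrome GTCTAGAC, which contains no other searched motif, was in none of the 6 and in 0.167% of all windows. A CANNTG E-box, the element bound by E-proteins, was found in the Id2 window and in no other of the 6, against 66.2% of all windows. The 6 windows had 58.4% to 75.2% G and C, against a median of 52.4% over the table. These are matches of letters in short windows. The remaining members are not shown.

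The arrays measured all 45101 probe sets as MAS5 signals, a linear brightness in arbitrary units, and having only 4 arrays limits how precise any value can be. The median signal of an array lay between 53.7 and 63.2, and rank correlations between arrays lay between 0.89 and 0.92. Ndn checked the labels: its main probe set, 1437853_x_at, had 55.4 and 105 in necdin null cells against 253 and 255 in wild type cells, and all 5 of its 8 probe sets above the filter were lower in both necdin null arrays. Of the 3 under the filter, 1456575_at went the other way on average, with 27.99 and 2.98 against 1.54 and 5.99. The 6 stem and progenitor markers analysed all passed the filter on low values, with Cd34 at 13407 to 15252 and Kit at 3744 to 6617. Ly6a, which encodes Sca-1, was not analysed here. Genes of the neutrophil lineage were present too. The summed signal of 8 neutrophil markers was 75092 and 167980 in necdin null cells against 55590.1 and 112886 in wild type cells, and all 8 passed the filter. The 8 include Mpo and Elane, which granulocyte precursors also express, so the sum is not one of mature cells alone. Mpo had 25658 and 39377 against 24363 and 28356. In RNA from many cells, fewer cells of a type and less RNA per cell cannot be told apart. Gapdh and actin gave far more 3′ than 5′ signal on all 4 arrays. Necdin null replicate 2 had the highest Gapdh 3′ to 5′ signal ratio, 15.8 against 9.96 to 11.7 on the other arrays. The actin ratio was 14.5 there against 9.21 to 12.4. The part of this 3′ excess in the signals of single probe sets was not tested.

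**Figure D1:**
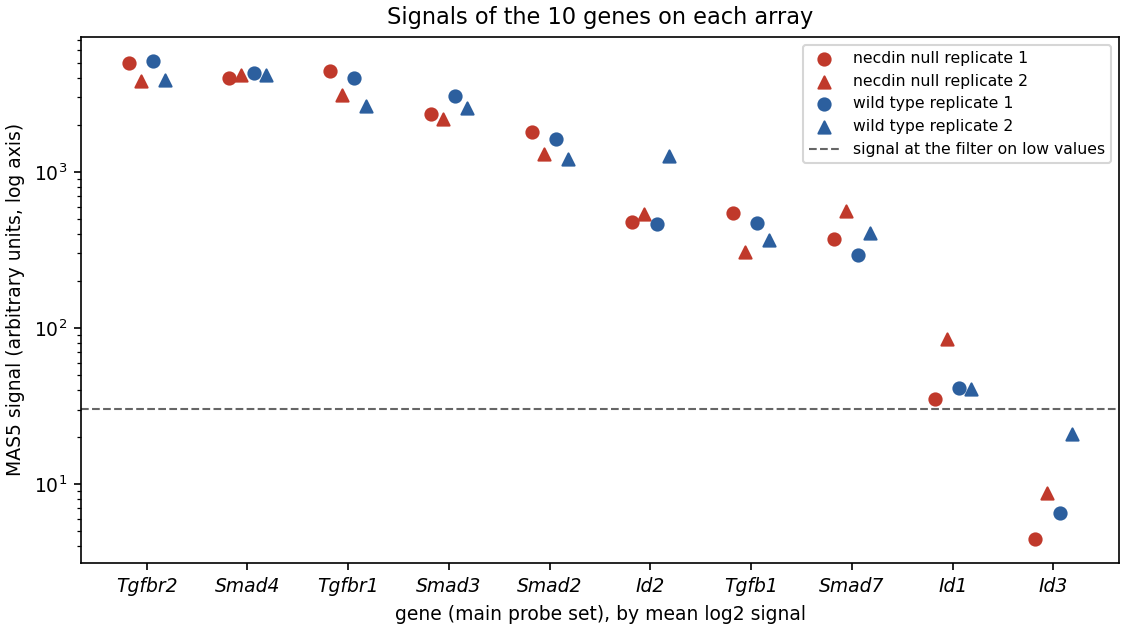
MAS5 signal of each gene's main probe set on each array, on a log axis, with genes ordered by mean log2 signal, colour for the group and symbol for the replicate number. The receptors and Smad4 were brightest, Id3 lay below the dashed line of the filter on every array, and wild type replicate 2 stood above the other arrays for Id2.

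The pathway's receptors and signal-carrying Smads gave strong signals in these irradiated LSK cells, while Id1 and Id3 gave weak ones. The main probe set of a gene is the one of highest mean log2 signal. In that order Tgfbr2 came first, followed by Smad4, Tgfbr1, Smad3, Smad2, Id2, Tgfb1, Smad7, Id1 and Id3. Tgfbr2 and Smad4 stood at the 95.7th and 95.5th percentile of all probe sets, Tgfbr1 at the 94.6th, Smad3 at the 92.8th and Smad2 at the 88.8th. Id2 was at the 80.3rd, Tgfb1 at the 75.9th, Smad7 at the 75.5th, Id1 at the 48.3rd and Id3 at the 16.3rd. Probe sets differ in how brightly they bind, so this is an order of probe signals and not of transcript numbers. Of the 9 pairs of neighbours, the ranges over the 4 arrays did not overlap for 3: Smad3 above Smad2, Smad7 above Id1, and Id1 above Id3. The other 6 pairs overlapped, and Tgfb1 and Smad7 were only 0.05 apart in mean log2 signal.

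None of the genes differed between necdin null and wild type cells past the threshold. Differences are given as log2(signal + 3.80) in necdin null minus wild type, tested with limma over all genes at an adjusted p of 0.05. A gene entered the test if its mean reached the 40th percentile over all probe sets, which corresponds to a signal of 30.3. Of the members, 9 of 10 entered and Id3 did not. With limma, 0 of 9 passed, and 0 of 12680 genes in all, a background of 0%. Ndn itself did not pass. Its main probe set had a difference of -1.68, with a limma adjusted p of 0.998 over all probe sets. Its probe set 1435383_x_at had a difference of -5.89 and a limma adjusted p of 0.257. The lack of calls therefore does not show a lack of change. At an unadjusted p under 0.05 there were 0 of 9 members against 3.02% of all genes. The smallest limma p among members was 0.14, for Smad3, and each had an adjusted p of 0.9985. Of the 9 differences, 4 were above 0 and 5 below, with a median of -0.02, against -0.03 over all genes. The median size regardless of sign was 0.19, against 0.21 over all genes. When all 15 member probe sets above the filter were tested, 0 passed, as did 0% of all probe sets, and 0 had an unadjusted p under 0.05, against 3.31%. The groups did not overlap for 1 of 9 members, Smad3, which was lower. Among all genes 17.7% were lower and 12.8% higher without overlap, 30.5% in all, so the members' share was not above the background. Of the 15 member probe sets, 3 had groups apart, 1 higher and 2 lower, against 31.2% of all probe sets, 14.3% higher and 16.9% lower. For 6 of the 9 the 95% interval of the main probe set's difference lay within a 2-fold change either way. It was wider for Smad7, Id1 and Id2, and for dimmer probe sets of Tgfb1 and Smad3.

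**Figure D2:**
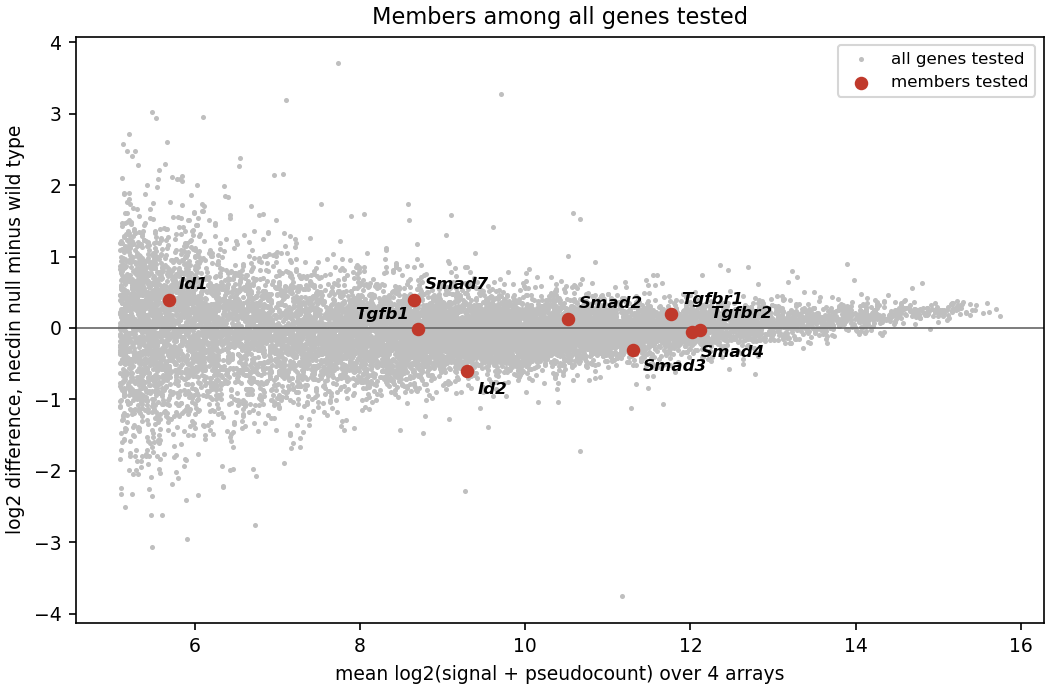
Log2 difference between necdin null and wild type cells against mean log2(signal + 3.80) for all 12680 genes tested (grey) and the 9 members that entered the test (red). The members lay within the cloud of all genes, from -0.60 for Id2 to 0.40 for Smad7.

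The ligand gene Tgfb1 had a main probe set signal of 546 and 305 in necdin null cells against 467 and 367 in wild type cells. The necdin null arrays enclosed both wild type values, so the groups overlapped. The difference was -0.02 with a standard error of 0.35 and a 95% interval from -0.82 to 0.78. Between the arrays of replicate number 1 it was 0.22, and between those of number 2 it was -0.26, so its sign differed with the number. A second probe set, 1445360_at, had 98.9 and 88.1 against 74.1 and 142, again with overlap, and a difference of -0.14 (standard error 0.51).

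Tgfbr1 encodes the type I receptor, the kinase that phosphorylates the receptor Smads. Its main probe set had 4438 and 3092 in necdin null cells and 3991 and 2629.6 in wild type cells. Within each group the replicate 1 array was the higher, and the groups overlapped. The difference was 0.19 (standard error 0.26, interval -0.40 to 0.78, fold 1.14). It was 0.15 with the replicate 1 arrays alone and 0.23 with the replicate 2 arrays alone. The other Tgfbr1 probe sets were below the filter, with signals of 1.80 to 41.4.

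Tgfbr2 encodes the type II receptor, which binds the ligand first. Its main probe set had 5016 and 3815 in necdin null cells and 5163 and 3888 in wild type cells. The arrays of 1 replicate number lay close together whichever cells had been transplanted. The difference was -0.03 with a standard error of 0.22 and an interval from -0.54 to 0.47. It was -0.04 and -0.03 within the replicate numbers. Its other 2 probe sets were below the filter, with signals of 4.93 to 50.4.

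Smad2, one of the receptor Smads, had 1808 and 1296 in necdin null cells against 1625 and 1205 in wild type cells on its main probe set. The groups overlapped, and the difference was 0.13 (standard error 0.24, interval -0.43 to 0.69). The dimmer probe set 1442062_at had 354 and 357 against 335 and 510.1, a difference of -0.22 (standard error 0.31). The probe sets of Smad2 thus pointed opposite ways, and neither passed.

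Smad3, the other receptor Smad and a direct DNA binder, was the member whose groups stood apart. Its main probe set had 2354 and 2175 in necdin null cells against 3044 and 2580.0 in wild type cells. Both necdin null arrays were below both wild type arrays. The group means were 2265 ± 126 and 2812 ± 328 (SD, n = 2 each), and the log2 difference was -0.31 with a standard error of 0.19 and an interval from -0.74 to 0.12, a fold of 0.81 (limma adjusted p = 0.9985). It was -0.37 with the replicate 1 arrays alone and -0.25 with the replicate 2 arrays alone. Probe set 1450472_s_at also had both necdin null arrays lower, at 43.5 and 55.9 against 86.9 and 81.2. Its difference was -0.73 with a standard error of 0.53 (limma adjusted p = 0.9985 over all probe sets). The suffix _s_at marks probes that may also bind other transcripts. The remaining Smad3 probe set, 1450471_at, was below the filter and had 77.0 and 9.72 against 5.59 and 13.0. The groups overlapped. The mean over all 3 probe sets, which gives this low one equal weight, was 0.12.

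Smad4, the common partner of all receptor Smads, had the most even signal of the 10. Its main probe set had 3974 and 4181 in necdin null cells against 4298 and 4175 in wild type cells. The groups overlapped by a narrow margin, and the difference was -0.06 (standard error 0.18, interval -0.46 to 0.35). Probe set 1422486_a_at had 3152 and 3462 against 3887 and 2778, with a difference of 0.01. The third, 1422485_at, had 2537 and 2178 against 1671 and 1797, so that both necdin null arrays were higher. Its difference of 0.44 (standard error 0.19, interval -0.01 to 0.89) had the smallest unadjusted p of the 15 member probe sets tested, and a limma adjusted p of 0.9985. The 3 probe sets of this gene therefore did not give 1 direction.

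Smad7 encodes the inhibitory Smad and is itself a target of TGF-beta. Its main probe set had 372 and 563 in necdin null cells against 295 and 408 in wild type cells. Each necdin null array was above the wild type array of its number, but the groups overlapped. The difference was 0.40 with a standard error of 0.33 and an interval from -0.36 to 1.15, a fold of 1.32. Within the replicate numbers it was 0.33 and 0.46. The dimmer probe set 1443771_x_at had 163 and 166 against 237 and 151, a difference of -0.20, so the probe sets did not share a direction. The suffix _x_at likewise marks probes that may bind other transcripts.

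**Figure D3:**
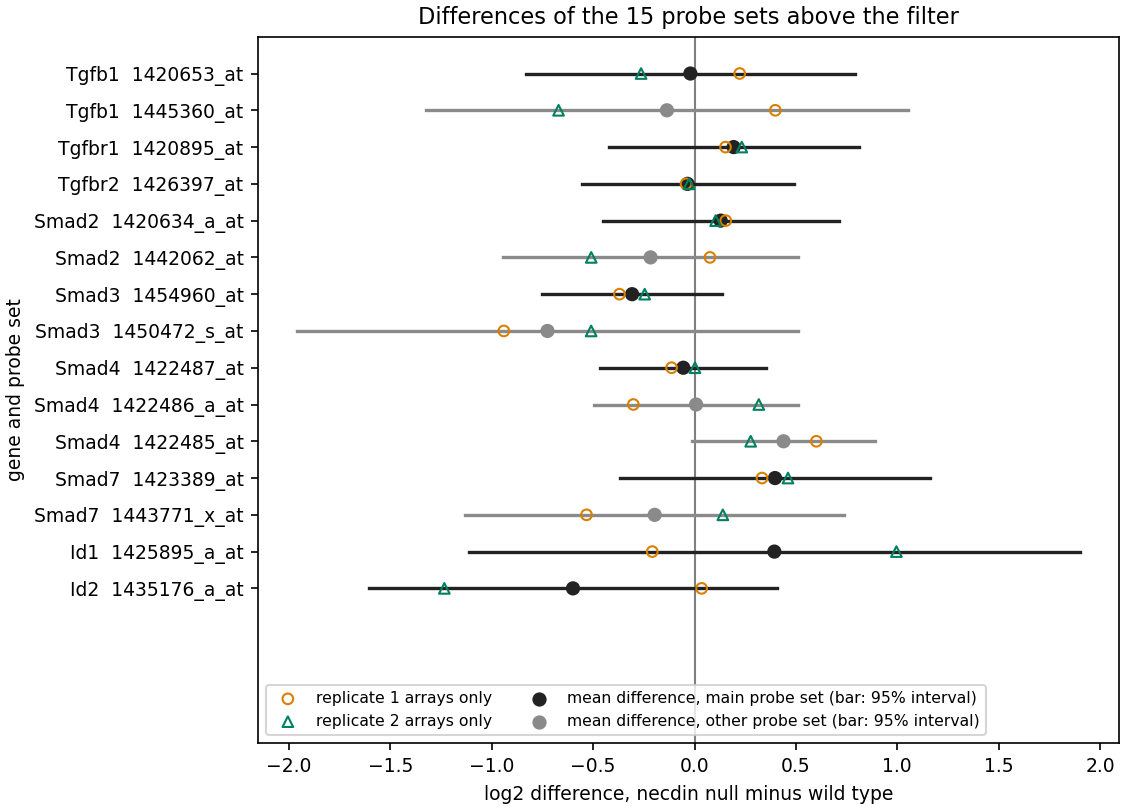
Log2 difference, necdin null minus wild type, of the 15 member probe sets above the filter, with 95% intervals from limma over all probe sets and, as open symbols, the difference between the arrays of each replicate number. Every interval includes 0, and the probe sets of Smad2, Smad4 and Smad7 pointed both ways.

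Of the Id genes, Id2 was the only one with a signal well above the filter. Its main probe set had 475 and 539 in necdin null cells and 464 and 1272 in wild type cells. Wild type replicate 2 stood above the other arrays, while the other wild type array was the lowest of the 4. The difference was -0.60 with a standard error of 0.42 and an interval from -1.56 to 0.36 (limma adjusted p = 0.9985). It was 0.04 with the replicate 1 arrays alone and -1.23 with the replicate 2 arrays alone. Without wild type replicate 2 it was 0.12, so the negative value rests on that array. The same array had the highest B lineage sum, 2379 against 1240.04 to 1419 over 7 markers on the array. Cd79a, Cd79b, Ms4a1 and Blk were highest there, while Vpreb1, Igll1 and Pax5 were highest on other arrays. Wild type replicate 2 also had the highest signal of Csf1r, the macrophage growth factor receptor, at 3497 against 834 to 2104. However, the summed monocyte and macrophage markers, 22408 there, were higher on necdin null replicate 2, at 23877. The part of these cells in the Id2 signal was not tested. The other 2 Id2 probe sets were below the filter. Of these, 1453596_at had 5.12 and 1.77 in necdin null cells against 26.4 and 20.8 in wild type cells, and 1422537_a_at had 7.67 and 65.8 against 6.62 and 18.9.

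Id1 had 35.2 and 85.2 in necdin null cells against 41.2 and 40.8 in wild type cells on its single probe set. Only necdin null replicate 2 was well above the filter's 30.3. The difference of 0.39 (standard error 0.64, interval -1.07 to 1.86) was the least precise of the 9, and without necdin null replicate 2 it was -0.20. Id3 had 4.44 and 8.71 against 6.54 and 20.9, below the filter on every array. Id3 was not tested, and at signals this low, without a detection call, its level cannot be told from background.

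For several members the arrays differed by replicate number more than by genotype. Tgfb1, Tgfbr1, Tgfbr2, Smad2 and Smad3 were higher on the replicate 1 array in both groups, 5 of 9 members against 29% of all genes. Smad7 and Id2 were lower there in both groups, 2 of 9 against 27.3%. For Tgfbr1, the replicate 1 array was above the replicate 2 array by 0.52 in necdin null and 0.60 in wild type cells on the log2 scale, and for Tgfbr2 by 0.39 and 0.41. For Smad2 the step was 0.48 and 0.43. Each of these steps was larger than the gene's difference between genotypes. Smad3 had steps of 0.11 and 0.24, smaller in size than its difference of -0.31 between genotypes. Kit, the receptor used for the LSK sort, had the same order, at 6049 and 6617 on the replicate 1 arrays against 3744 and 3976 on the replicate 2 arrays. The stem and progenitor markers did not share 1 order. Gata2 and Slamf1 went with Kit, Cd34 and Meis1 were mixed, and Flt3 was higher on both replicate 2 arrays. Their sum was 31306 and 31469 in necdin null replicates 1 and 2, and 34933 and 29290 in wild type replicates 1 and 2. The neutrophil sums above and the sums of the dendritic list (7150 and 5530 against 12925 and 12166) were higher on both replicate 2 arrays. So were the Gapdh 3′ to 5′ ratios (11.0 and 9.96 against 15.8 and 11.7). The dendritic sums were mostly Irf8 and Flt3, which is also among the stem and progenitor markers. The dim Siglech and Xcr1 were lower on both replicate 2 arrays, and Itgax and Cd209d were mixed. The part of these sums and ratios in the members' values was not tested. The labels do not say what the number stands for.

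The wider pathway was read through 8 lists with 92 entries, of which 88 were on the array and 63 passed the filter. With limma, 0 of 63 passed the threshold, and 2 had an unadjusted p under 0.05, against the 3.02% of all genes. Of the 63, 36 differences were above 0 and 27 below, with a median of 0.03 against -0.03 over all genes. Groups did not overlap for 10 that were higher and 8 that were lower in necdin null cells, against 12.8% and 17.7% of all genes. For each list the genes of largest difference among those with groups apart are named, with some others whose groups overlapped, chosen after their values were seen. None passed (limma adjusted p of 0.9985 or higher). When 1 array was left out, an alternative chosen after seeing the data, the median changed sign for 6 of the 8 lists, all but those of latency and activation and of extracellular antagonists.

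Among the other ligands of the family, 7 of 14 on the array passed the filter. Without overlap, 1 was higher and 3 were lower, against 12.8% and 17.7% of all genes. Bmp7, a ligand of the BMP branch that induces Id genes, had 122 and 126 in necdin null cells against 60.5 and 41.3 in wild type cells. Its difference was 1.25 with a standard error of 0.51. Nodal, an embryonic ligand, had 24.6 and 21.5 against 45.0 and 55.4 (difference -1.004), with both necdin null arrays under the filter. Inhbb, an activin subunit, had 78.7 and 59.4 against 87.0 and 122 (difference -0.57). All of these were dim signals.

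Among genes of ligand latency and activation, 5 passed the filter. Groups stood apart for 1 of them, against 30.5% of all genes: Ltbp4, a latent TGF-beta binding protein. It had 82.1 and 84.1 in necdin null cells against 57.5 and 58.3 in wild type cells, a difference of 0.49. Nrros, which anchors latent TGF-beta on myeloid cells, was bright at 8865 to 10886 on all 4 arrays and had a difference of 0.14. Of 4 extracellular antagonists above the filter, 3 were below 0. Their median was -1.06, with values from -1.73 for Fstl3 to 0.39 for Grem1, and their standard errors were 0.67 or more. The median was -0.28 without necdin null replicate 2 and -0.66 without necdin null replicate 1. Fstl3 had 6.17 and 57.2 in necdin null cells against 50.9 and 119 in wild type cells. Its groups overlapped, and necdin null replicate 1 was under the filter. Fstl1, a follistatin-like secreted protein, had 340.5 and 49.97 in necdin null cells against 339 and 391 in wild type cells, so necdin null replicate 2 alone was low, and 1 of its 2 tested probe sets was higher. Chrd, which binds BMPs, was the one with groups apart, at 28.3 and 20.2 against 34.3 and 48.0 (difference -0.68). Both its necdin null arrays were under the filter, so it passed through its wild type values.

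The other receptors had a median of 0.06 over 10 genes. Bambi, a decoy receptor, had 192 and 191 in necdin null cells against 174 and 141 in wild type cells (0.28). Acvr1b, an activin type I receptor, had 2166 and 2321 against 2146 and 1845 (0.17), and Acvr1c had 30.2 and 28.9 against 44.1 and 37.2 (-0.41). Both necdin null arrays of Acvr1c were under the filter's 30.3, so it passed through its wild type values. The co-receptor Eng and the BMP type II receptor Bmpr2 had the differences closest to 0, under 0.01. Of the other Smads, Smad1, a receptor Smad of the BMP branch, had 2068 and 1959 against 2240.5 and 2562 (-0.25, standard error 0.19), and 1 of its 3 tested probe sets was higher. Smad5 had 0.03 and the inhibitory Smad6 had 0.20, both with overlap.

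All 17 Smad regulators and co-repressors passed the filter, with a median of 0.04. Crebbp, the acetyltransferase that Smads recruit as a co-activator, had 1313 and 1696 in necdin null cells against 2307 and 2216 in wild type cells. Its difference was -0.60 with a standard error of 0.20, and all 3 of its tested probe sets were lower. Pmepa1, a TGF-beta target that dampens the signal, had 56.9 and 50.4 against 43.8 and 14.7 (0.95). Its wild type replicate 2 value was under the filter. Foxh1, a Smad partner, had 51.8 and 48.4 against 30.4 and 26.8 (0.73), near the filter. The co-repressors Ski and Skil had -0.44 and 0.07.

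Of the 16 target genes of TGF-beta and BMP on the array, 11 passed the filter. None of the 11 had groups apart, against 30.5% of all genes. The median of the 11 was -0.05, with 5 above 0 and 6 below. Klf10, an early TGF-beta response gene, had 1692 and 1196 in necdin null cells against 1827 and 1182 in wild type cells (-0.05), the order by replicate number seen for the receptors. Tgfbi, a secreted matrix protein, had 1040.04 and 857 against 412 and 1453 (0.28). Cdkn1c, the cell cycle inhibitor p57 that marks quiescent stem cells, had 283 and 117 against 138 and 158 (0.29). Of the partners of Id proteins, the E-protein genes Tcf3, Tcf4 and Tcf12 stood at the 86.1st, 94.1st and 95.9th percentile, with differences of -0.39, 0.28 and 0.05. Tcf4 had 3256 and 3779 in necdin null cells against 2631 and 3190.0 in wild type cells, with both necdin null arrays higher and 5 of its 6 tested probe sets in that direction. Lyl1, a factor that pairs with E-proteins in blood progenitors, had 4401 and 4484 against 4824 and 4502 (-0.07).

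**Figure D4:**
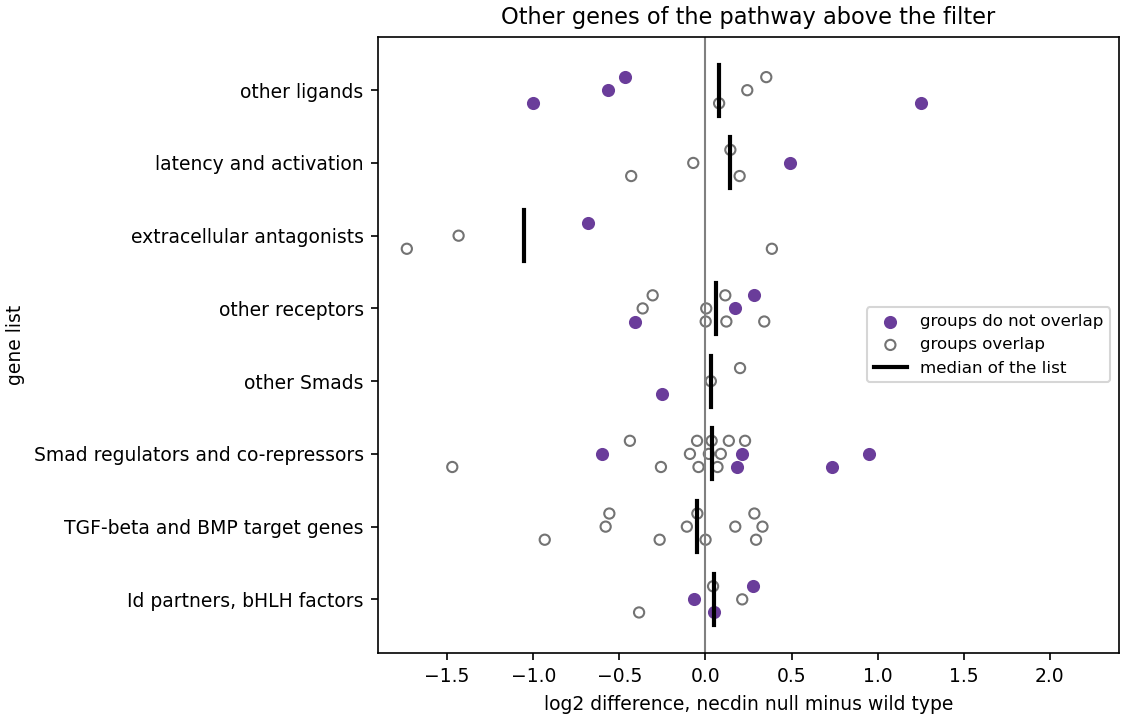
Log2 difference, necdin null minus wild type, of the 63 other pathway genes above the filter, by list, with filled points where the groups of 2 arrays did not overlap and a bar at each list's median. Medians lay between -0.05 and 0.14 except for the 4 extracellular antagonists at -1.06, where it was -0.28 without necdin null replicate 2.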

How the data were processed

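Gene expression was measured on 4 Affymetrix 3′ arrays, from biotinylated cRNA of total RNA, per the labels' protocols. The deposited intensity values are MAS5 signals per the submitters' processing notes, and no version is stated there. They are linear, and each array's mean after trimming 2% at each end was 500.004. Detection calls were not used here. Of 45101 probe sets, 34958 had 1 gene symbol in the platform annotation and gave 18194 genes; 932 with several and 9211 with none were not named.

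Values were analysed as log2(signal + 3.80), the pseudocount being the 10th percentile of all values, which understates changes of low genes. The brightest probe set of a gene by mean log2 value stood for it, and genes under the 40th percentile over all probe sets (5.09 on this scale) were left out. limma 3.58.1 in R 4.3.3 (lmFit and trended eBayes; two-sided tests; Benjamini-Hochberg adjustment over all genes) was fitted to all 4 arrays, and again to all 22557 probe sets with 1 symbol above the filter. The code was tested on simulated data. With 2 arrays in each group, the smallest two-sided p of an exact permutation test is 0.333. The members and lists were chosen with earlier results of these data known. The genes named were all members, Ndn, and in each pathway list genes past the threshold. Where none passed, up to 3 with groups apart and the largest differences were named. Nrros, Eng, Bmpr2, Smad5, Smad6, Ski, Skil, Klf10, Tgfbi, Cdkn1c, Tcf3, Fstl1, Fstl3, Grem1, Cd34, Kit and Csf1r were added after their values were seen. So were Mpo, Elane, Flt3, Irf8, Siglech, Xcr1, Itgax, Cd209d, Xist, Eif2s3y and Kdm5d. The same holds for Gata2, Slamf1, Meis1, Cd79a, Cd79b, Ms4a1, Blk, Vpreb1, Igll1 and Pax5. Promoter sequences are those of RefSeq for GRCm38.p6; the files name no build. Alternatives changed the pseudocount, filter, normalization, probe set choice and variance model, included the replicate number as a block term, or omitted 1 array at a time (for medians of the pathway lists, chosen after seeing the data).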

Additional observations from a re-analysis of the deposited data

How the results depend on the processing

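The count of members past the threshold was 0 in the main test and under all 14 alternatives, as were the counts of member probe sets under the 12 that apply to them and of other pathway genes. The lowest adjusted p of a member over the alternatives was 0.80. Of 122 values of single members under alternatives, 103 kept their direction, 19 turned, and 1 had an unadjusted limma p under 0.05, that of Id2 without wild type replicate 1 (-1.32). With quantile normalization Tgfb1 was 0.034. With the mean of all probe sets Tgfbr1 was -0.13, Smad2 -0.044, Smad3 0.12 and Smad4 0.13, where dim probe sets weigh as much as bright ones. Tested singly, Smad4 had 0.44 (1422485_at) and 0.0076 (1422486_a_at), Smad2 -0.22 (1442062_at) and Smad7 -0.20 (1443771_x_at). When 1 array was left out, a lone array being assumed to vary like the other group, the differences lay between -0.44 and 0.40 for Tgfb1, -0.11 and 0.49 for Tgfbr1, -0.24 and 0.17 for Tgfbr2, -0.11 and 0.37 for Smad2, -0.20 and 0.99 for Id1, and -1.32 and 0.12 for Id2. They kept their sign for Smad3 (-0.43 to -0.19), Smad4 (-0.09 to -0.02) and Smad7 (0.10 to 0.69). The median over members went from -0.11 to 0.17. The cause of these turns was not tested. The count of all genes past the threshold was 0 to 4 when an array was left out and 3 with the replicate block (Ddit4, Gas2l3 and Tcl1b3), none a member. Among the genes past it with an array left out were Xist (without necdin null replicate 1), and Eif2s3y and Kdm5d (without wild type replicate 2). Xist is expressed from the inactive X chromosome, and Eif2s3y and Kdm5d lie on the Y chromosome. Whether the arrays differ in the sex of their cells was not tested, nor was its part in the array-to-array spread. The replicate numbers were not treated as pairing, since there are only 2 pairs, whose deviations had a correlation of 0.11 over genes. The block changed no call of a member, with limma adjusted p of 0.898 or higher. With median centring the median over all genes was -0.11 in place of -0.03, and that of the members -0.10 in place of -0.02. With 2 arrays a group, the main probe set intervals of Id1, Id2 and Smad7 leave differences of over 2-fold undecided. So do those of the dimmer probe sets 1445360_at of Tgfb1 (-1.32 to 1.05) and 1450472_s_at of Smad3 (-1.96 to 0.51).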
